A study of Mus musculus with 19 samples.

Results

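The genes that make, release and take up extracellular vesicles were followed in whole mammary tumours. They were chosen by name, as 38 mouse symbols of tetraspanins, sorting machinery, Rab GTPases, raft lipids, vesicle cargo and uptake. No cut on their values was used, but earlier results of these data were known when they were chosen. All 38 symbols had a row, and together they matched 39 of the 26796 gene identifiers in the table, since Hgs matched a pair of overlapping identifiers. All 39 passed the filter on low counts, which kept 15629 genes.

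RNA was sequenced from 19 tumours of Met1, a mouse mammary carcinoma line that can be transplanted. Every tumour-bearing mouse received vesicles shed by neutrophils, and no mouse without vesicles was included among these samples. In the first group (27HC, n = 10) the donor neutrophils had been exposed to 27-hydroxycholesterol, an oxidised form of cholesterol that acts on the liver X and oestrogen receptors. In the second group (DMSO, n = 9) they had been exposed to the solvent alone. The comparison therefore asks how the vesicle genes of the recipient tumour differed with the exposure of the cells that gave the vesicles. The sources used here do not give the strain, age and sex of the mice or the dose, route and timing of the vesicles. Whether each tumour came from its own mouse is not stated, so the p-values measure the spread between these samples, which may in part be technical.

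Extracellular vesicles form in different places. Exosomes bud into multivesicular endosomes, where the ESCRT complexes, the syntenin and Alix route or ceramide drive the budding, and Rab GTPases carry these endosomes to the plasma membrane for release or to the lysosome for destruction. Other vesicles bud directly from the plasma membrane, which is rich in Cd9 and Cd81. Recipient cells take vesicles up through integrins, through proteins such as milk fat globule-EGF factor 8 that bridge exposed phosphatidylserine to integrins, and through heparan sulphate proteoglycans. RNA levels measure none of these steps directly, and vesicle number, release and uptake were not measured in these files.

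Library totals ranged from 28139419 to 41179056 expected counts. In 5 libraries, 27HC replicates 1_3, 1_5 and 2_3 and DMSO replicates 1_5 and 2_3, the mean GC content of the transcripts behind the counts was 49.5% to 49.8%, against 51.1% to 52.8% in the other 14 (7 27HC and 7 DMSO). These are called the low-GC libraries, and the log2 fold change of each vesicle gene between 27HC and DMSO tumours is given with and without them. In these whole tumours the summed level of 7 epithelial markers was 46.1 to 147 CPM (counts scaled to a common library size) in 27HC tumours and 63.8 to 147 CPM in DMSO tumours. Krt18 made up most of it, at 84.3 ± 27.1 CPM in 27HC tumours and 86.5 ± 30.1 CPM in DMSO tumours, while Epcam averaged 2.36 and 3.5 CPM. The 6 macrophage markers summed to 1019 to 1848 CPM in 27HC tumours and 1148 to 2066 CPM in DMSO tumours, and the 5 fibroblast markers to 1219 to 3135 CPM and 1028 to 2138 CPM. The 8 neutrophil markers summed to 56.7 to 172 CPM in 27HC tumours and 53.0 to 111 CPM in DMSO tumours. Skeletal muscle markers reached 3030 CPM in a 27HC tumour and 1149 CPM in a DMSO tumour, and salivary gland markers reached 6141 CPM in a DMSO tumour, against 32.5 CPM at most with 27HC. No tested marker, in these or the other lists, passed the threshold between the groups, and the part of these cells in the vesicle gene values was not tested. In whole tumours, fewer cells of a type and less RNA per cell cannot be told apart.

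Per kilobase of transcript, the most abundant vesicle gene was Cd63, which encodes a tetraspanin of late endosomes and exosomes. Its level was 714 ± 172 CPM per kb in 27HC tumours and 765 ± 229 CPM per kb in DMSO tumours (SD, n = 10 and 9). Anxa2, a membrane-binding annexin often found in vesicles, followed with 445 ± 98.7 and 531 ± 199 CPM per kb, then the chaperone gene Hspa8 with 374 ± 40.4 and 409.9 ± 50.5 CPM per kb and Cd9 with 312 ± 37.2 and 321 ± 29.3 CPM per kb, 27HC before DMSO in each case. At the other end stood Smpd3, which encodes neutral sphingomyelinase 2, a source of ceramide for exosome budding, with 0.133 ± 0.0743 CPM per kb in 27HC tumours and 0.139 ± 0.0658 CPM per kb in DMSO tumours. Its relative Smpd2, neutral sphingomyelinase 1, had 18.4 ± 6.29 CPM per kb in 27HC tumours and 18.7 ± 6.79 CPM per kb in DMSO tumours. The exosome release GTPases were also low for this set. Rab27a had 2.52 ± 0.909 CPM per kb with 27HC and 2.68 ± 0.921 with DMSO, and Rab27b had 1.15 ± 0.330 with 27HC and 1.099 ± 0.437 with DMSO. Rab7, which takes endosomes to the lysosome, had 198 ± 20.5 CPM per kb in 27HC tumours and 219.6 ± 23.3 CPM per kb in DMSO tumours.

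**Figure D1:**
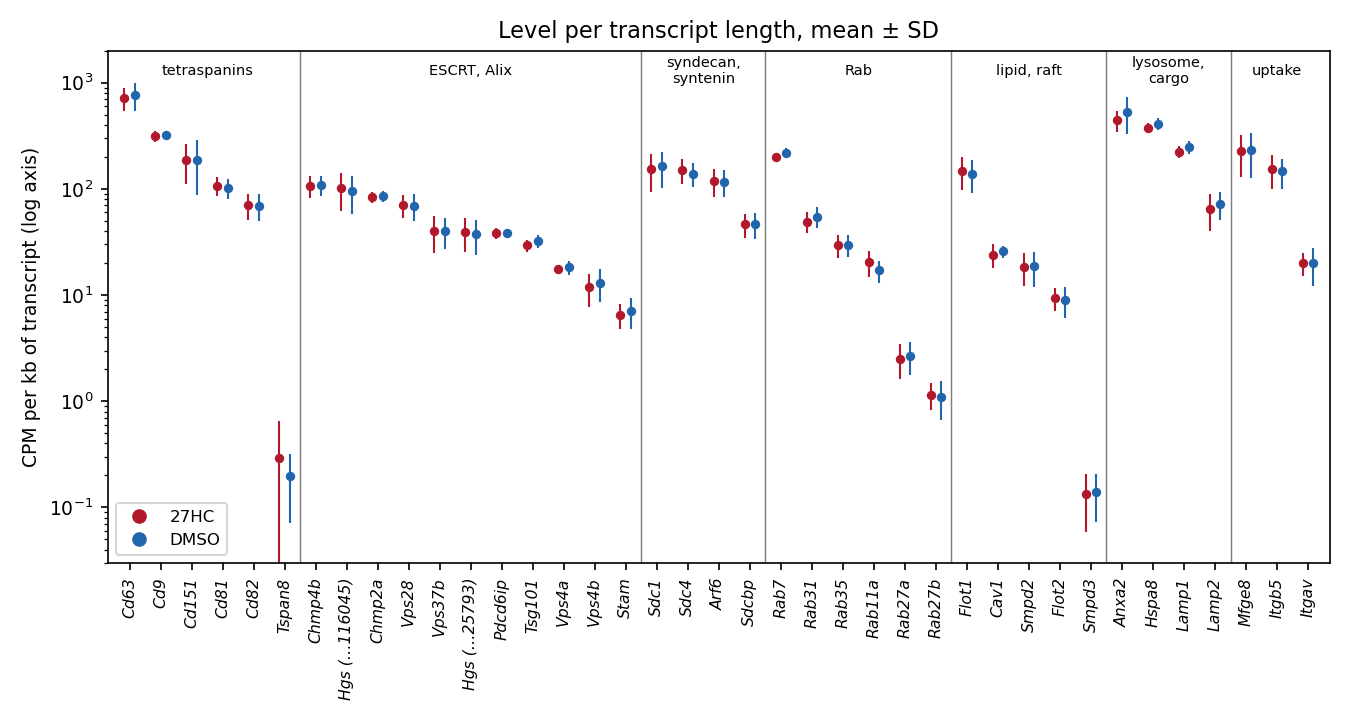
Level of each vesicle gene per kilobase of transcript (CPM per kb, log axis), by role and falling from left to right within a role; points are means and bars are SD over 10 27HC tumours (red) and 9 DMSO tumours (blue). The genes span from Cd63, at 714 CPM per kb with 27HC and 765 with DMSO, to Smpd3, at 0.133 and 0.139; the lower bar of Tspan8 with 27HC runs off the axis because its SD exceeds its mean.

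No vesicle gene differed between 27HC and DMSO tumours beyond the spread between tumours. In edgeR's quasi-likelihood test with Benjamini-Hochberg adjustment over all 15629 genes, 0 of the 39 passed an adjusted p of 0.05, and the background was also 0% of all genes tested. At an unadjusted p under 0.05 there were again 0 of the 39, against 354 of all genes (2.27%). The adjusted p of every one of the 39 was 0.9998. DESeq2 and limma-voom, run as alternatives, also called 0 of the 39. The log2 fold changes of 27HC over DMSO ran from -0.26 (Anxa2) to 0.57 (Tspan8), 15 above 0 and 24 below 0, while 46.1% of all genes lay below 0. Their median was -0.03, beside 0.01 for all genes tested. In the 14 tumours other than the low-GC libraries, 38 identifiers passed the filter on low counts (not Tspan8), again 0 passed the threshold (0% of all 15260 genes), and 19 lay above 0 and 19 below 0. There 1 of the 38, Lamp2, had an unadjusted p under 0.05, against 6.01% of all genes. By role, the medians in those 14 tumours ran from -0.23 for lysosome and cargo genes to 0.08 for uptake genes, which like the lipid and raft genes (0.08) had a median below 0 over all 19 tumours. The groups overlapped in CPM for all 39, as they did for every gene tested (0% without overlap).

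The data bound the size of a difference for most of these genes. For 28 of the 39 the 95% interval stopped short of 1.5-fold, up and down, against 53.2% of all genes, and for 38 it stopped short of 2-fold, against 86.3%. Without the low-GC libraries it stopped short of 1.5-fold for 32 of 38, against 58.8% of all genes, and of 2-fold for all 38, against 87.7%. The exception to the 2-fold bound was Tspan8, which had 0 to 48 counts per library. The 11 that could differ by more than 1.5-fold were Cd151, Tspan8, Hgs under ENSMUSG00000116045, Vps4b, Sdc1, Rab11a, Smpd3, Flot1, Lamp2, Anxa2 and Mfge8.

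**Figure D2:**
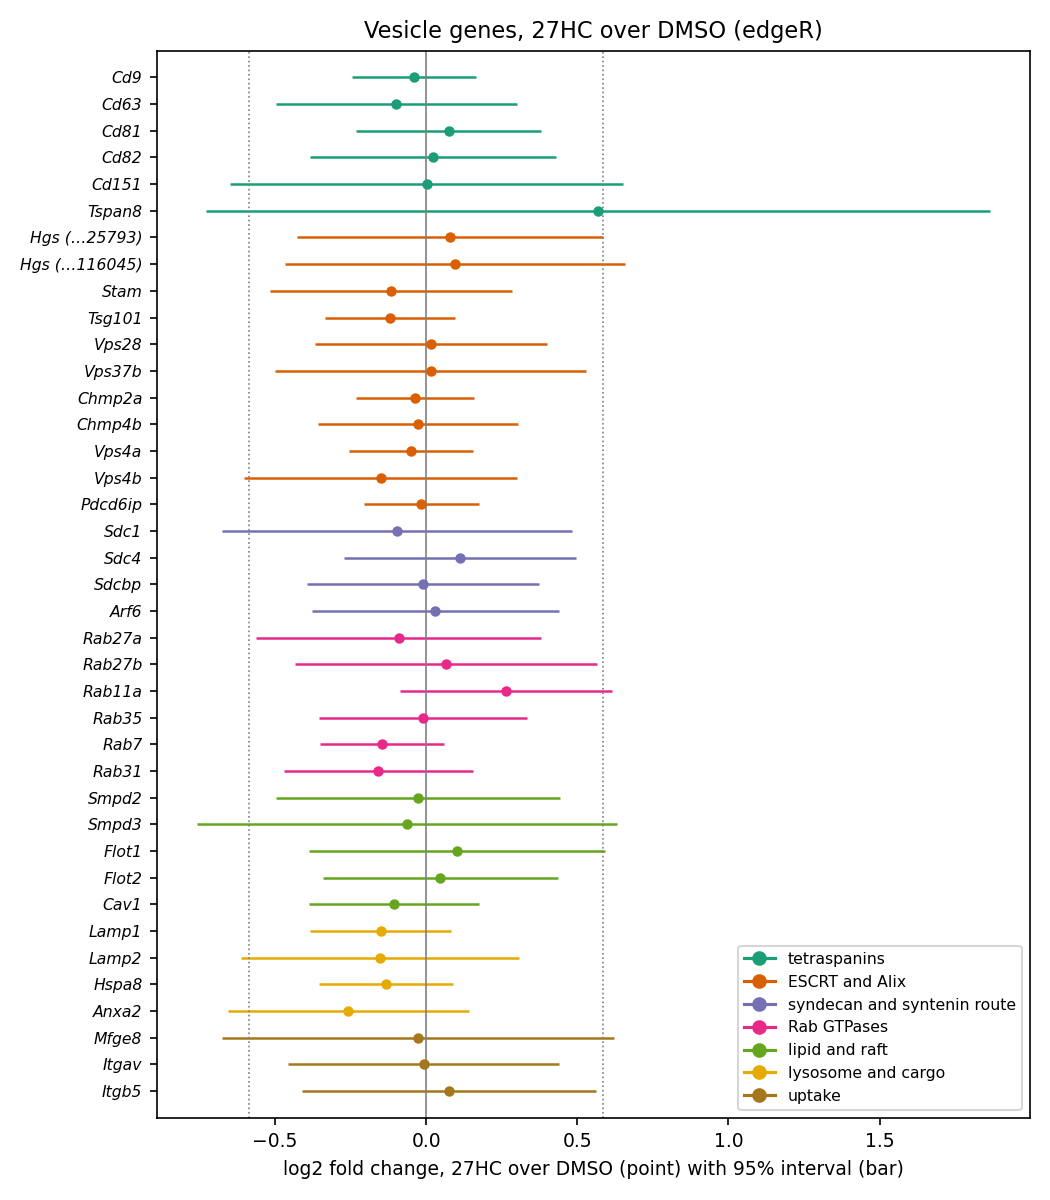
Log2 fold change of each vesicle gene, 27HC over DMSO (points), with its 95% interval derived from the edgeR fit (bars), coloured by role; dotted lines mark 1.5-fold. Every interval crosses 0, 28 of 39 lie between the dotted lines, and Tspan8 has the widest.

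Among the tetraspanins, fold changes were above 0 for 4 of 6 genes, and their log2 median was 0.01. Cd9 (chr6:125460266-125494791 in GRCm38), a tetraspanin of the plasma membrane, had 302, 379 and 465 CPM in 27HC tumours (lowest, median and highest) and 368, 384 and 478 CPM in DMSO tumours. The log2 fold change was -0.04 (SE 0.10) over all tumours and -0.09 without the low-GC libraries. The 27HC tumours at 302, 354.5, 357, 363 and 364 CPM lay under all DMSO tumours. The other 5 of the 10 lay above the DMSO median, and the medians were almost level. Cd81, which associates with Cd9 in the membrane, had 104, 174 and 202 CPM with 27HC and 114, 154 and 206 CPM with DMSO, a log2 fold change of 0.07 (SE 0.15), or 0.12 without the low-GC libraries. Of the 10 27HC tumours 7 lay above the DMSO median, but the ranges were nearly the same.

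Cd63 had 400.3, 854 and 1019 CPM in 27HC tumours and 484, 808 and 1312 CPM in DMSO tumours, a log2 fold change of -0.10 (SE 0.19). The lowest tumours of both groups were low-GC libraries, and without those its log2 fold change was -0.09 (SE 0.12). Cd151, a partner of laminin-binding integrins, had 0.00 (SE 0.31) on the same scale and 0.09 (SE 0.19) without the low-GC libraries. Cd82, a tetraspanin known as a metastasis suppressor, had 0.02 (SE 0.20) over all tumours and 0.07 without them. Tspan8, a tetraspanin linked to vesicle targeting in rat and human tumour models, had the smallest p of this group (unadjusted p = 0.372, edgeR). Its levels were near 0, at 0.0340, 0.215 and 1.52 CPM in 27HC tumours and 0, 0.301 and 0.585 CPM in DMSO tumours. The value of 0 was in DMSO replicate 2_4, where 0 counts allow up to 0.0796 CPM. The 2 highest values were in the low-GC libraries 27HC replicates 1_5 and 1_3, and without 27HC replicate 1_5 the log2 fold change of 0.57 (SE 0.62) was 0.05. Without all 5 low-GC libraries it was not fitted, because too few counts were left.

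The ESCRT genes and Alix, which sort cargo into budding vesicles and cut the vesicles free, had a median log2 fold change of -0.03, with 4 of 11 identifiers above 0 and 7 below. Tsg101 (chr7:46888949-46919969), the ESCRT-I subunit that recruits the later complexes, had the smallest p of these (unadjusted p = 0.263, edgeR). Its level was 48.7, 55.3 and 73.4 CPM in 27HC tumours and 46.4, 63.5 and 73.1 CPM in DMSO tumours. This gave a log2 fold change of -0.12 (SE 0.10), or -0.13 without the low-GC libraries, and 2 of 10 27HC tumours lay above the DMSO median. Pdcd6ip, which encodes Alix, the adaptor that links syntenin to ESCRT-III, varied least between tumours, with a coefficient of variation of 9.19% over all 19. It had 176, 229.6 and 255 CPM with 27HC and 196, 229.9 and 256 CPM with DMSO, so the medians were nearly identical and the log2 fold change was -0.02 (SE 0.09), or -0.03 without the low-GC libraries. Its 95% interval ran from 0.866-fold to 1.13-fold.

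Of the other ESCRT genes, the ESCRT-III filament subunits Chmp2a and Chmp4b gave -0.04 (SE 0.09) and -0.03 (SE 0.16) as log2 fold change, and -0.08 and 0.02 without the low-GC libraries. The ATPases Vps4a and Vps4b, which take that filament apart, had -0.05 (SE 0.10) and -0.15 (SE 0.22), and -0.05 and -0.25 (SE 0.17) without them. The ESCRT-I subunits Vps28 and Vps37b had 0.02 (SE 0.18) and 0.01 (SE 0.25), and 0.02 and 0.12 without them. The ESCRT-0 subunit Stam had -0.12 (SE 0.19) over all tumours and -0.16 without them. Hgs, the other ESCRT-0 subunit, was listed under ENSMUSG00000025793 and ENSMUSG00000116045, both on chromosome 11 from 120467635, so that reads could be split between them and the level of each alone is uncertain. Summed, they had 409 ± 153 CPM in 27HC tumours and 384 ± 146 CPM in DMSO tumours (SD, n = 10 and 9), or 0.09 (SE 0.26) as log2 fold change and 0.18 (SE 0.15) without the low-GC libraries.

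The syndecan and syntenin genes act beside ESCRT: syntenin (Sdcbp) binds the tails of syndecans and recruits Alix, and Arf6 promotes this budding. Sdcbp had 60.3, 93.5 and 134 CPM in 27HC tumours and 44.6, 109.7 and 126 CPM in DMSO tumours, a log2 fold change of -0.01 (SE 0.18), or -0.09 without the low-GC libraries. The 27HC median lay below the DMSO median, but the lowest tumour of all was DMSO replicate 1_2. Sdc4, a syndecan of focal adhesions, had the smallest p here (unadjusted p = 0.553, edgeR), with 213, 402.5 and 492 CPM with 27HC and 196, 375 and 437 CPM with DMSO. Its log2 fold change was 0.11 (SE 0.18), the lowest tumours of both groups were low-GC libraries, and without those it was 0.16 (SE 0.12). Sdc1, the syndecan of epithelial cells, had -0.10 (SE 0.28) over all tumours and 0.00 (SE 0.13) without them, and Arf6 had 0.03 (SE 0.20) and 0.06.

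Among the Rab GTPases, which move vesicles and endosomes, 2 of 6 were above 0 and 4 below, with a median of -0.05. Rab27a, which docks multivesicular endosomes at the plasma membrane, had 4.23, 8.16 and 12.8 CPM in 27HC tumours and 4.89, 6.93 and 12.6 CPM in DMSO tumours. The difference on the log2 scale was -0.09 (SE 0.23), or -0.17 without the low-GC libraries, and the ranges nearly coincided. Rab27b, which also acts in exosome release, had 5.91, 7.002 and 11.9 CPM with 27HC and 2.26, 7.34 and 11.5 CPM with DMSO. Its log2 fold change was 0.07 (SE 0.24), or 0.03 without the low-GC libraries. The value of 2.26 CPM was that of DMSO replicate 1_2, well under every other tumour.

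Rab11a (chr9:64715299-64737758), the GTPase of recycling endosomes, had the smallest p of all 39 (unadjusted p = 0.130, edgeR; adjusted p = 0.9998). It had 31.2, 49.5 and 67.6 CPM in 27HC tumours and 29.9, 39.0 and 56.2 CPM in DMSO tumours. Its log2 fold change was 0.27 (SE 0.17) with and without the low-GC libraries. Of the 10 27HC tumours 7 lay above the DMSO median, and the 95% interval over all tumours ran from 0.943-fold to 1.53-fold. On the log2 scale Rab7 gave -0.15 (SE 0.10), and Rab31, which also drives budding of exosomes in human cells, gave -0.16 (SE 0.15). Without the low-GC libraries these were -0.17 and -0.16. Rab35, a GTPase of exosome docking, had -0.01 (SE 0.16) over all tumours and 0.03 without them.

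The genes of sphingolipid and raft budding had a median log2 fold change of -0.03, with 2 of 5 above 0. Smpd3 rested on 9 to 62 counts per library, and had 0.340, 0.479 and 1.30 CPM in 27HC tumours and 0.340, 0.661 and 1.43 CPM in DMSO tumours. This is a log2 fold change of -0.06 (SE 0.33), or 0.09 (SE 0.35) without the low-GC libraries, and the lowest values of the groups were equal to 3 digits. Cav1, the coat protein of caveolae, had the smallest p of these (unadjusted p = 0.444, edgeR), with 38.8, 58.3 and 90.3 CPM with 27HC and 51.0, 65.1 and 77.0 CPM with DMSO. Its log2 fold change was -0.11 (SE 0.14), or -0.22 (SE 0.13) without the low-GC libraries, and the 27HC tumours spread beyond the DMSO range on both sides. The flotillins Flot1 and Flot2, scaffold proteins of rafts, had 0.10 (SE 0.24) and 0.05 (SE 0.19), and 0.19 (SE 0.13) and 0.08 without the low-GC libraries. Smpd2 had -0.03 (SE 0.23) over all tumours and 0.04 without them.

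The 4 lysosome and cargo genes all lay below 0, at a median log2 fold change of -0.15, and 0 of the 4 passed the threshold. Anxa2 (chr9:69453620-69491795) had the smallest p of them (unadjusted p = 0.192, edgeR), with 438, 664 and 822 CPM in 27HC tumours and 506, 704 and 1414 CPM in DMSO tumours. The highest value belonged to DMSO replicate 1_3, and without that tumour the log2 fold change was -0.10, against -0.26 (SE 0.19) with it, while without the low-GC libraries it was -0.25. Lamp1, an abundant glycoprotein of the lysosomal membrane, had -0.15 (SE 0.11) over all tumours and -0.16 without the low-GC libraries. Hspa8, the constitutive Hsc70 chaperone carried in vesicles, had -0.13 (SE 0.11) over all tumours and -0.20 (SE 0.10) without them, and 1 of 10 27HC tumours lay above the DMSO median.

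Lamp2, a lysosomal glycoprotein that also serves chaperone-mediated autophagy, had 156, 193 and 363 CPM in 27HC tumours and 115, 259.9 and 374.5 CPM in DMSO tumours, which gave -0.15 (SE 0.22) as log2 fold change. The 5 highest tumours, 3 with 27HC and 2 with DMSO, were the low-GC libraries. Without them the log2 fold change was -0.37 (SE 0.16; unadjusted p = 0.0332, adjusted p = 0.787, edgeR), and with a correction for GC content it was -0.21 (SE 0.09; unadjusted p = 0.0365, adjusted p = 1). Neither passed the adjusted threshold. Lamp2 is the second most AT-rich of these transcripts, with 38.7% GC, after Rab27b with 37.9%. A stretch of its coding sequence, less AT-rich than the whole transcript, is shown to compare with one of Mfge8 below: the first 120 bases of exon 3, the longest coding exon, at chrX:38440225-38440344 (GRCm38, minus strand, GENCODE M21), with G and C in capitals, 53 of 120 bases or 44.2%.
Lamp2: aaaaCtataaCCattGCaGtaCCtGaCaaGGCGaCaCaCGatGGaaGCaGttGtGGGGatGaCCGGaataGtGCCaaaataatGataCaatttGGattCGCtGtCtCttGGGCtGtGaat

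Of the uptake genes, 1 of 3 had a fold change above 0, and the median was -0.01. Mfge8, whose product bridges phosphatidylserine on vesicles to integrins, had 153, 529 and 739 CPM in 27HC tumours and 189.8, 505 and 854 CPM in DMSO tumours. Its log2 fold change was -0.03 (SE 0.31), and the 5 low-GC libraries were again apart, here at the bottom of both groups. Without them the log2 fold change was 0.08 (SE 0.16). The integrin chains that bind this protein, Itgav and Itgb5, had -0.01 (SE 0.22) and 0.08 (SE 0.23), and -0.09 and 0.16 (SE 0.12) without the low-GC libraries. Itgb5 had the smallest p of the 3 (unadjusted p = 0.748, edgeR), with 255, 539 and 777 CPM with 27HC and 244, 555 and 646 CPM with DMSO. The Mfge8 transcript has 57.6% GC. The first 120 bases of its longest coding exon, exon 8, at chr7:79136722-79136841 (GRCm38, minus strand, GENCODE M21), are given beside the Lamp2 stretch for their base composition, with G and C in capitals, 66 of 120 bases or 55%.
Mfge8: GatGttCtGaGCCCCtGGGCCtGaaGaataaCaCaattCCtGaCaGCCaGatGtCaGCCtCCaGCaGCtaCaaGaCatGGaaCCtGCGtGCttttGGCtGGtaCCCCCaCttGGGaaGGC

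**Figure D3:**
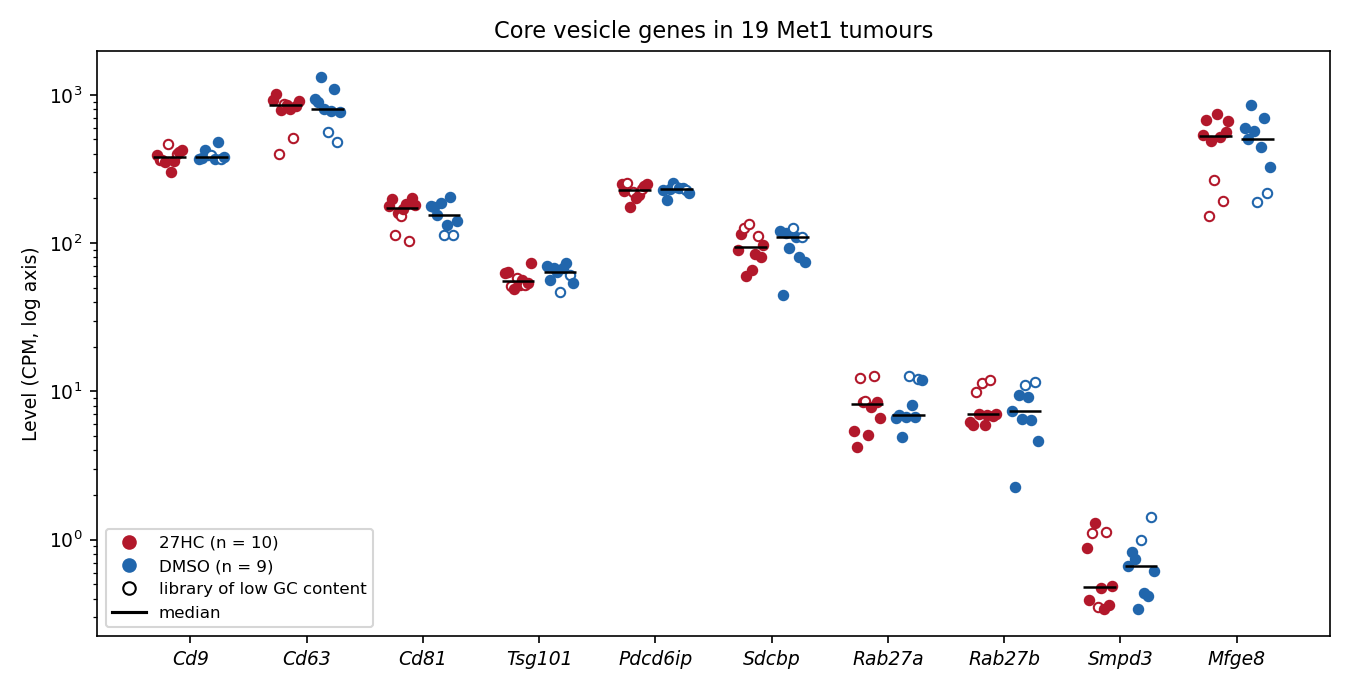
Level of 10 core vesicle genes (CPM, log axis) in each of 10 27HC tumours (red, left) and 9 DMSO tumours (blue, right); open circles are the 5 low-GC libraries and lines are medians. The groups overlap for each gene, and for Mfge8 the open circles, 153 to 268 CPM, lie under all filled ones, 324 to 854 CPM.

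Genes of the same processes outside the chosen set gave a like result. Of 116 further genes in 7 lists, chosen by known role, 115 had a row and 113 passed the filter, and 0 of the 113 passed the threshold. None reached an unadjusted p under 0.05, against 2.27% of all genes. Without the low-GC libraries 0 of 111 passed the threshold and 9 had an unadjusted p under 0.05, against 6.01% of all genes. Across those 111 the log2 fold changes ran from -0.80 to 0.46, with 52 above 0 and 59 below. Over all 19 tumours the log2 fold changes of the 113 had a median of -0.01, with 51 above 0 and 62 below. The smallest p was that of Ext1, which builds the heparan sulphate chains that vesicles bind, with 182 ± 13.3 CPM in 27HC tumours and 206.5 ± 35.1 CPM in DMSO tumours (SD, n = 10 and 9). Its log2 fold change was -0.18 (SE 0.10; unadjusted p = 0.0861, adjusted p = 0.9998, edgeR). Itgam, an integrin chain of myeloid cells, was next among uptake genes with -0.33 (SE 0.22).

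In each of the remaining lists the pair of genes with the smallest p is given by its log2 fold changes. Among further cargo, Ehd4, an endosomal ATPase, had -0.16 (SE 0.10) and the transferrin receptor gene Tfrc had -0.30 (SE 0.25). Among further ESCRT genes, the ESCRT-I subunits Ubap1 and Mvb12a had -0.12 (SE 0.10) and 0.33 (SE 0.39). Among lipid enzymes, Sgms1, which makes sphingomyelin, and Sphk1, which makes sphingosine 1-phosphate, had 0.19 (SE 0.17) and 0.26 (SE 0.28). Among genes of docking and fusion, Cttn, which encodes the actin regulator cortactin, and Rab9, a GTPase of late endosomes, had 0.12 (SE 0.13) and 0.16 (SE 0.16). For shedding from the cell surface, the lipid scramblase gene Ano6 and the annexin gene Anxa5 had -0.12 (SE 0.10) and -0.13 (SE 0.13). The tetraspanins Tspan3 and Tspan15 had 0.15 (SE 0.13) and -0.11 (SE 0.14).

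Each title also holds a first number, 1 or 2, whose meaning is not stated, so its use as a batch is not known: 5 27HC and 5 DMSO tumours carry a 1, and 5 27HC and 4 DMSO tumours carry a 2. The median log2 fold change of the vesicle genes was -0.07 among the tumours numbered 1 and 0.03 among those numbered 2. For all genes tested these medians were 0.03 and -0.02. Among tumours numbered 1 the low-GC libraries were 27HC replicates 1_3 and 1_5 and DMSO replicate 1_5. Among those numbered 2 they were replicate 2_3 of each group. The part of this uneven split in the values by number was not tested. The difference between the 27HC effects in tumours numbered 1 and 2 was tested for every gene as an interaction. In edgeR's test 0 of the 39 and 0% of all genes passed the threshold. Flot2 came nearest, with a log2 fold change of -0.24 (SE 0.21) in tumours numbered 1 and 0.45 (SE 0.25) in tumours numbered 2, a difference of 0.74 (SE 0.35; unadjusted p = 0.0478, adjusted p = 0.911). Across all genes 223 had an unadjusted p under 0.05 for this difference (1.43%). None of the 39 differed between the numbers themselves (0 passed, 0% of all genes, with 384 genes or 2.46% at an unadjusted p under 0.05).

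The 5 low-GC libraries, which hold tumours of both groups, stood apart for vesicle genes about as often as for all genes. In these 5 libraries 25 of the 39 were lower and 14 higher than in the other 14 libraries, while 46.3% of all genes tested were lower. Of the 39, 9 were shifted by more than 1 on the log2 scale, beside 26.2% of all genes. For 11 the low-GC libraries lay outside the range of the others, 9 below it and 2 above, beside 23.9% of all genes, of which 1848 lay below and 1890 above. Mfge8 had the largest downward shift, -1.51, with 153 to 268 CPM in low-GC libraries and 324 to 854 CPM in the others. Cd151 followed with -1.37, with 131 to 237 CPM in low-GC libraries and 222 to 745 CPM in the others, then Sdc1 with -1.35, Hgs under ENSMUSG00000116045 with -1.23, Vps37b with -1.18, and Hgs under ENSMUSG00000025793 and Itgb5 with -1.10 each. The largest shift upward was that of Tspan8, 1.75, at 0.302 to 1.52 CPM in low-GC libraries and 0 to 0.371 CPM in the others. Vps4b followed with 0.86, though its ranges overlapped. Lamp2 also went up, with 328.5 to 374.5 CPM in low-GC libraries and 115 to 327 CPM in the others, a shift of 0.84. Rab27b did likewise, with 9.94 to 11.9 CPM and 2.26 to 9.38 CPM.

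The shift ran with the base composition of the transcript and also with the level of the gene. The libraries were set apart by the GC content of their counts, so a relation to base composition follows in part from that choice. Among the vesicle genes with 55% to 60% GC the median shift was -1.04 (13 identifiers), and among those with less than 40% GC it was 0.71 (4 identifiers). All genes tested ran the same way, with -0.68 (3172 genes) and 1.28 (859 genes) in the same ranges. Across the 39 identifiers the shift and the GC content had a Pearson r of -0.78 and a Spearman rho of -0.80, against -0.71 and -0.73 across 15406 genes. These are descriptions across genes measured in the same libraries, and genes are not independent replicates. By level, the median shift was 0.80 for the 4 vesicle genes under 4 log2 CPM and -0.75 for the 12 over 8 log2 CPM, against 0.45 (7280 genes) and -0.78 (607 genes) over all genes. After the correction for GC content, the medians over all genes in these ranges were 0.40 and -0.26. The cause of the low GC content was not tested.

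**Figure D4:**
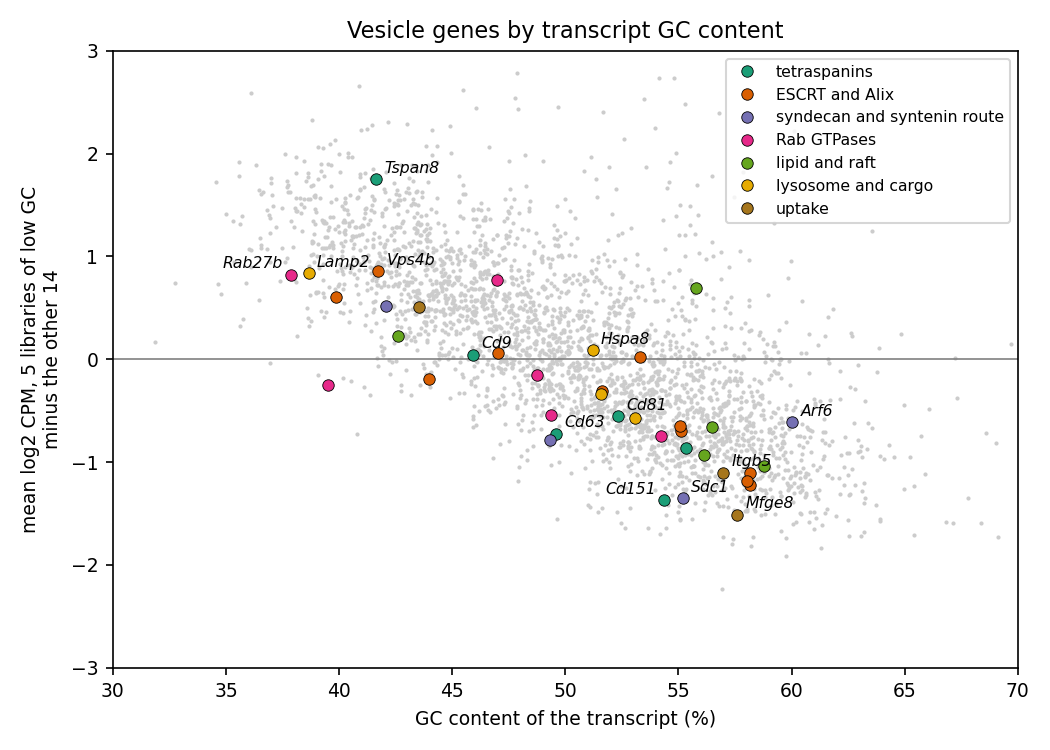
Shift of each vesicle gene in the 5 low-GC libraries against the other 14 (difference of mean log2 CPM) by the GC content of its transcript (percent); coloured points are the 39 identifiers by role and grey points a random draw of tested genes, some of which lie beyond the axes. GC-rich genes such as Mfge8 (57.6% GC, shift -1.51) lie low and AT-rich genes such as Lamp2 (38.7% GC, shift 0.84) lie high.

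The median spread between tumours shrank without these libraries, for the vesicle genes as for all genes. The coefficient of variation of CPM had a median of 27.3% over the 39 identifiers in all 19 tumours and 18.5% in the 14 others, beside 32.0% and 23.6% over all genes tested. Among those 14 the steadiest were Vps4a, at 8.79%, Chmp4b, at 9.79%, and Pdcd6ip, at 10.2%, while Tspan8 (70.5%) and Smpd3 (46.4%), both with few counts, varied most. Mfge8 varied by 42.9% over all 19 tumours and 22.9% over the 14, and Sdc1 by 37.5% and 17.7%. The spread did not shrink for every gene. Hspa8 had 12.23% over all and 13.55% over the 14, Cd9 had 10.45% and 10.83%, and Pdcd6ip had 9.19% and 10.2%. For Itgav it was 31.6% over all and 34.3% over the 14. The lowest tumour of Itgav was DMSO replicate 1_2, with 57.0 CPM, and its highest DMSO replicate 2_1, with 222 CPM.

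**Figure D5:**
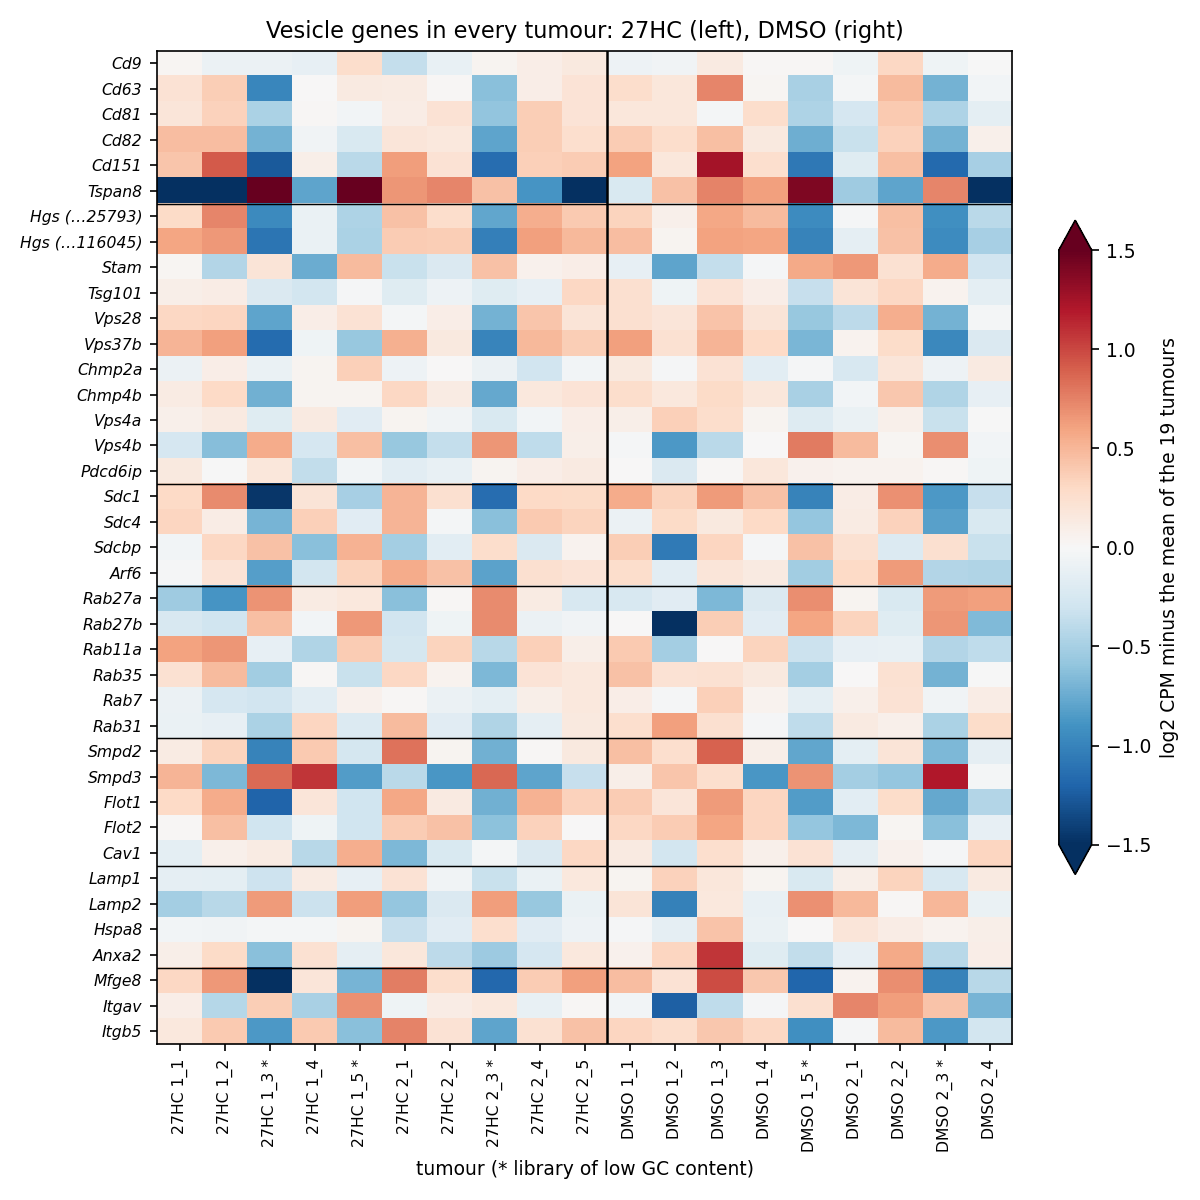
Log2 CPM of each vesicle gene (rows, by role) in every tumour (columns, 27HC left and DMSO right, low-GC libraries starred) minus its mean over the 19 tumours; CPM under 0.05 were set to 0.05. The starred columns are blue for GC-rich genes such as Mfge8 and Sdc1 and red for Lamp2 and Rab27b in both groups.

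Partner genes were compared across tumours in 12 pairs chosen by known partnership. Because the low-GC libraries form a cluster of their own, r is given within the other 14 tumours, with p from a two-sided permutation test of 100000 resamples adjusted over the 12 pairs. No pair passed the threshold there. The highest r was that of the flotillins Flot1 and Flot2, with Pearson r = 0.70 (permutation p = 0.00858, adjusted p = 0.0657) and Spearman rho = 0.62 (adjusted permutation p = 0.241). Syntenin and Alix, Sdcbp and Pdcd6ip, which bind each other, came next with r = 0.65 (permutation p = 0.0109, adjusted p = 0.0657) and rho = 0.49 (adjusted permutation p = 0.292). Without the 2 tumours farthest from the median of the first gene these r were 0.50 and 0.34. Leaving out the most extreme tumours narrows the range and can itself lower r. A fall of this kind therefore does not show how far r rested on those tumours. The ATPases Vps4a and Vps4b had a negative r of -0.58 (permutation p = 0.0288, adjusted p = 0.115), which was -0.31 without such tumours. For the 9 other pairs r lay between -0.37 (Sdcbp and Sdc4) and 0.31 (Sdcbp and Sdc1).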

How the data were processed

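RNA of 19 Met1 tumours was measured, 10 from the 27HC and 9 from the DMSO group. The authors deposited 1 table of expected counts for 26796 genes, made by estimating counts per gene from the reads by a step not described in the labels, and each column was matched to a sample by its title. Credited to the submitters' processing notes, without roles, are GRCm38, kallisto 0.44.0, limma and edgeR; which annotation was used, and whether low genes were filtered, is not given in the sources read. Per the labels' protocols, libraries were stranded, made from mRNA and read from each end. Estimated counts divide reads shared by overlapping or near-identical genes by a model, which touches the pair of Hgs identifiers. No pair of libraries of 1 group agreed within sampling noise (lowest chi-square per degree of freedom 42.1 over 81 pairs).

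Expected counts were rounded to whole numbers and fitted with edgeR 4.0.16 (R 4.3.3): TMM, filterByExpr (15629 genes kept, 11167 left out), the quasi-likelihood test of 27HC over DMSO with no covariate, and Benjamini-Hochberg adjustment at 0.05 over all genes. CPM are counts scaled by the TMM library size, and log2 values for relations use a prior count of 2. Symbols, coordinates, the longest principal coding transcript and its GC content came from GENCODE M21 on GRCm38. The fit was tested on simulated counts.

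The genes, lists, pairs and tests were chosen with earlier results of these data known. Values are given in full for the gene with the smallest unadjusted p in each role, for 10 core genes whatever their values, and for the pair with the smallest p in each further list; other vesicle genes are described more briefly. Alternatives were RLE size factors, DESeq2 1.42.0, limma-voom 3.58.1, no filter, a filter at 1 log2 CPM, the full title number as a replicate block, the first title number as covariate or alone, and leaving out each tumour. Added after seeing the data were a fit without the libraries under 50.5% GC, the sum of the Hgs identifiers, and a lowess correction for GC content per library (span 0.3, trained on genes of at least 4 log2 CPM). Earlier forms of this correction were replaced: 1 trained on all genes, after its results were seen, and 1 that left out the TMM factors, an error. The limit of 50.5% was also moved after seeing the data, into the gap between the libraries. Of the further genes, Vamp7 had no row matched here. Expected counts without molecular identifiers bound counting error only, and the 0-count limit uses 3 counts.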

Additional observations from a re-analysis of the deposited data

Results flagged for a closer look

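Hspa8 was high in 1 tumour. DMSO replicate 1_3 had 1255 CPM, and the next DMSO tumour had 1051 CPM, a gap that took up 0.504 of the whole range of the 9 DMSO tumours. The critical value of Dixon's test for 9 samples is 0.493. This was the only such gap among 78 sets of values (39 identifiers in the 27HC and DMSO groups), and chance gives such a gap in about 1 in 20 sets. The same tumour held the highest value of all 19 tumours for 9 vesicle genes: Cd63, Cd151, Rab7, Smpd2, Flot1, Flot2, Hspa8, Anxa2 and Mfge8. Without it the log2 fold change of Hspa8, 27HC over DMSO, was -0.09, against -0.13 (SE 0.11) with it.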

How the results depend on the processing

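No vesicle gene and none of the 113 further genes was called under any alternative. Over all genes, DESeq2 called 2 genes between 27HC and DMSO and 41 between the title numbers, where edgeR called 0 each time; the other alternatives of these comparisons, leave-one-out included, called 0, and the cause was not tested. The median log2 fold change of the vesicle genes, -0.03, was -0.07 and 0.03 in tumours numbered 1 and 2, 0.01 without the low-GC libraries, and -0.06 to 0.00 when each tumour was left out. With few counts, Tspan8 and Smpd3 are the least precise, and Tspan8 was removed by the filter without the low-GC libraries.

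Signs of single genes were unsettled: 152 of 1169 values under alternatives had the other sign, 0 of them called. RLE size factors and DESeq2 both gave Sdcbp 0.0053, Rab35 0.0077 and Itgav 0.0056. limma-voom gave Vps37b -0.026, Sdcbp 0.0050 and Itgav 0.070, the filter at 1 log2 CPM gave Cd151 -0.0023 and Vps37b -0.011, and the title number as covariate gave Itgav 0.0053. Most signs changed among the tumours numbered 1 alone (20): Cd9 0.021, Cd82 -0.088, Cd151 -0.26, Hgs -0.15 and -0.17 for its identifiers, Stam 0.063, Vps28 -0.017, Vps37b -0.23, Chmp2a 0.060, Vps4b 0.070, Sdcbp 0.11, Arf6 -0.034, Rab27a 0.074, Smpd3 0.20, Flot1 -0.17, Flot2 -0.24, Cav1 0.014, Lamp2 0.064, Itgav 0.36 and Itgb5 -0.14. The low-GC libraries among tumours numbered 1 were 27HC replicates 1_3 and 1_5 and DMSO replicate 1_5. The part of this uneven split in these signs was not tested. Among the tumours numbered 2 alone 7 signs changed: Chmp4b 0.048, Vps4a 0.030, Sdc1 0.11, Rab27b -0.052, Rab35 0.10, Smpd2 0.27 and Mfge8 0.32. Without the low-GC libraries there were 5: Chmp4b 0.017, Rab35 0.030, Smpd2 0.038, Smpd3 0.090 and Mfge8 0.083. The GC correction gave 5: Vps37b -0.076, Pdcd6ip 0.032, Sdcbp 0.027, Arf6 -0.072 and Itgav 0.065.

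Leaving out each tumour in turn gave the other sign at least once for 18 identifiers, with these ranges: Chmp4b -0.097 to 0.025, Sdcbp -0.11 to 0.048, Rab35 -0.10 to 0.048, Smpd2 -0.14 to 0.11, Mfge8 -0.15 to 0.11, Rab27b -0.056 to 0.17, Pdcd6ip -0.069 to 0.020, Cd82 -0.065 to 0.075, Cd151 -0.11 to 0.22, Hgs -0.024 to 0.16 and -0.0079 to 0.18 for its identifiers, Vps28 -0.061 to 0.095, Vps37b -0.097 to 0.097, Arf6 -0.042 to 0.13, Flot2 -0.025 to 0.13, Itgav -0.13 to 0.10, Itgb5 -0.026 to 0.14 and Smpd3 -0.22 to 0.13.

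With the full title number as a replicate block (9 pairs, 18 tumours), edgeR called 0 genes, 226 had an unadjusted p under 0.05, the vesicle genes' median was -0.04, and Vps37b (-0.053), Arf6 (-0.0088) and Itgav (0.073) had the other sign. Deviations of same-numbered tumours correlated from -0.43 to 0.78, over 0.1 in 5 of the 9 pairs, and 2 27HC tumours correlated best with their own number. Replicates 1_5 and 2_3 were low-GC libraries in both groups. Whether same-numbered tumours share more than a number is not stated and cannot be told from these values.

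The partner relations depended on the libraries. Over all 19 tumours 8 of 12 pairs passed, but 4 did without the 2 farthest tumours, 3 and 1 within the title numbers, 0 without the low-GC libraries and 4 after the GC correction. The sign changed for Cd9 and Cd81 in tumours numbered 1 (-0.081). It changed without the low-GC libraries for Lamp1 and Lamp2 (0.012), Hgs and Stam (0.12), Sdcbp and Sdc1 (0.31), Rab27a and Rab27b (-0.14) and Itgav and Itgb5 (0.091). It changed with the correction for Lamp1 and Lamp2 (0.71), Hgs and Stam (0.43), Sdcbp and Sdc1 (0.65), Sdcbp and Sdc4 (0.47), Rab27a and Rab27b (-0.47), Flot1 and Flot2 (-0.34) and Itgav and Itgb5 (0.41). The median coefficient of variation, 27.3%, was 18.5% without the low-GC libraries and 15.9% after the correction. The correction left a median shift of 0.40 in genes under 4 log2 CPM and -0.26 in those over 8, so its values carry a residue of level.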

Other observations

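DMSO replicate 1_2, the library with the highest GC content of all 19 (52.8%), held the lowest value of 7 vesicle genes: Stam (18.9 CPM), Vps4b (29.99 CPM), Sdcbp (44.6 CPM), Rab27b (2.26 CPM), Rab11a (29.9 CPM), Lamp2 (115 CPM) and Itgav (57.0 CPM). Their transcripts have 37.9% to 43.6% GC. It also held the highest value of Vps4a (49.8 CPM), Rab31 (269 CPM) and Lamp1 (659.6 CPM), with transcripts of 49.4% to 51.6% GC. Such values were not confined to it: 27HC replicate 1_3, a low-GC library, held the lowest value of 14 identifiers. DMSO replicate 1_3 held the highest value of 9. The share of all genes with their lowest or highest value in each library is not given here. These were noticed in the data and are given as values only.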
